A study of Mus musculus with 8 samples.

Results

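The Nr4a, Egr and Nab genes described here are 8 genes named by symbol: Nr4a1, Nr4a2, Nr4a3, Egr1, Egr2, Egr3, Nab1 and Nab2. Each of the 8 symbols matched 1 Ensembl gene ID among the 39179 IDs listed for every library. The genes were selected on their deposited values in these same libraries, with the comparison of freshly isolated and cultured cells already known, so their values in that comparison are a description and carry no test. Total RNA was sequenced from common lymphoid progenitors (CLPs) of C57BL/6 mice, the marrow precursors of B, T and natural killer cells. The ex vivo CLP group held 4 libraries from cells sorted directly after isolation. The cCLP group held 4 libraries from cells grown for 2 months on OP9, a mouse stromal cell line, with low IL-7 and Flt3 ligand, and then sorted. Both sorts kept lineage-negative, Ly6d-negative cells positive for CD27, for Flk2 (encoded by Flt3) and for IL7R, the IL-7 receptor. The labels name no animal, age, culture or sequencing batch, so p-values given for other genes measure only the spread between these libraries, which may be technical.

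Nr4a1 (Nur77), Nr4a2 (Nurr1) and Nr4a3 (Nor1) are orphan nuclear receptors whose activity is set mainly by how much of them is made. Egr1, Egr2 and Egr3 are zinc finger transcription factors that bind GC-rich sites. All 6 are immediate early genes, transcribed within minutes of a signal through the RAS to ERK kinases, calcium or cyclic AMP without new protein synthesis, by way of factors such as SRF and CREB that are already in place. Nab1 and Nab2 encode corepressors that bind Egr proteins and restrain them, and Egr proteins in turn can induce Nab2. In blood cells Nr4a1 is widely used as a reporter of antigen receptor signalling and is needed for a class of monocytes, while Egr1 has been linked to stem cell quiescence and Egr2 and Egr3 to early thymocyte development.

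Libraries did not all lie with their labels. Over 6486 genes, the library labelled ex vivo CLP 2 had Spearman's rho of 0.959 to 0.987 with cCLP 2, 3 and 4 but of 0.738 to 0.801 with the remainder of its own group. For the library labelled cCLP 1, rho was 0.947 to 0.979 with ex vivo CLP 1, 3 and 4 but 0.781 to 0.793 with the remainder of its group. Results are therefore given over all 8 libraries as labelled and again without ex vivo CLP 2 and cCLP 1, as 3 libraries against 3, and no library was moved to the other group. Whether the labels or files of these 2 libraries were exchanged was not tested, so each difference over 8 libraries holds only for the groups as labelled. The 6 were kept because of these profiles, so differences between them hold only given that choice. They are called the 3 kept ex vivo and the 3 kept cultured libraries below. Of the genes used in the sort, Flt3 (scaled value 209 to 283) and Cd27 (61.9 to 104) were present in all 8 libraries. Il7r ranged from 17.3 to 74.8 in the kept ex vivo libraries and cCLP 1 and from 196 to 224 in the other 4. Ly6d, sorted against as a protein, was at 21.0 to 34.6 in the former 4 and at 0 to 1.05 in the latter 4. A scaled value is the deposited whole number per gene divided by a library factor. The deposited numbers are not read counts, their scale is not stated, and they summed to between 378594 and 704305 per library, so depth is unknown and levels are compared between libraries for 1 gene at a time, not between genes.

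The promoter sequences of 5 of the 8 genes are shown. The Nr4a genes shared a pattern over the libraries in the main (Nr4a3 was at 0 in ex vivo CLP 1) that Egr2 did not follow, and the Nab1 promoter holds Egr sites. Whether these sequences bear on the values was not tested. The sequences are RefSeq promoter windows. They come from RefSeq (GRCm38.p6) and run 5′ to 3′ on the gene's strand. Windows were examined for 6 of the 8 genes. In the first 4 lines capitals mark TGACG, the core of the cyclic AMP response element (CRE) that CREB family factors bind, on either strand (CGTCA on the opposite one), and the CArG box of SRF. In the Nab1 line capitals mark GCGTGGGCG, the Egr consensus site, on either strand.
Nr4a1 (chr15:101266596-101266895, plus strand): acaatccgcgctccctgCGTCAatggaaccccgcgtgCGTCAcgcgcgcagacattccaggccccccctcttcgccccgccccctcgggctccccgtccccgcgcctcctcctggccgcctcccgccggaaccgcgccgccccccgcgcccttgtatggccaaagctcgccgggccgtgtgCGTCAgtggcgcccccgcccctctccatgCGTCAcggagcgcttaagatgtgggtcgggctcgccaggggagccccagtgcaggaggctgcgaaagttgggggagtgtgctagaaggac
Nr4a2 (chr2:57123954-57124253, minus strand): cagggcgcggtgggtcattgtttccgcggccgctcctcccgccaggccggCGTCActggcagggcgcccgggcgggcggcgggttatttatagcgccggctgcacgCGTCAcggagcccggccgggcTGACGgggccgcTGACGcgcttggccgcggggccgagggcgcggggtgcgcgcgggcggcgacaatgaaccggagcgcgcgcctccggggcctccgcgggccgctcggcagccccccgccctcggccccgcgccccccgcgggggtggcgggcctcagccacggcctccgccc
Nr4a3 (chr4:48045055-48045354, plus strand): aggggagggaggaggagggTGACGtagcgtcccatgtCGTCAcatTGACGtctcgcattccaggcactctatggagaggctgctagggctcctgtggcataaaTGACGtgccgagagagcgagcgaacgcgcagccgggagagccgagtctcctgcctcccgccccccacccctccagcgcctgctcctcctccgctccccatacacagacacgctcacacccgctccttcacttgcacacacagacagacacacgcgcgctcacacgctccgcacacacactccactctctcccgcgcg
Egr2 (chr10:67537619-67537918, plus strand): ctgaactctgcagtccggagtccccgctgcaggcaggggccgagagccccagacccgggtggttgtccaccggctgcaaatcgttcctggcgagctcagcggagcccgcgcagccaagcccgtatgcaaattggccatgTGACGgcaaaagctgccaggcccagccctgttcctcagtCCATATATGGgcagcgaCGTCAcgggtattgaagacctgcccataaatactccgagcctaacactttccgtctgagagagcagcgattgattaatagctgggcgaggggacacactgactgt
Nab1 (chr1:52500399-52500698, minus strand): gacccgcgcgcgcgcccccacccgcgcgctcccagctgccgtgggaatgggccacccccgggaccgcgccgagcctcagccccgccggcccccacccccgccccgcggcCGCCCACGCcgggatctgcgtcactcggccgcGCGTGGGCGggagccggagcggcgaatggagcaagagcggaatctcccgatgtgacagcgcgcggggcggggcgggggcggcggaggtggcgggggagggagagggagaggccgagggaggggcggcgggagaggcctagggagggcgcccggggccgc

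Each of the 3 Nr4a windows held 4 CRE cores. Over 32817 promoter windows of the same length, 20.8% held at least 1 CRE core and 0.232% held at least 4. The palindromic CRE (TGACGTCA), present in 1.79% of all windows, was in none of the 10 member windows, nor was the NBRE (AAAGGTCA), the site that Nr4a receptors bind as monomers (1.51% of all windows). The Egr2 window shown held 2 CRE cores and 1 CArG box, which 1.63% of all windows held. Egr2 has 5 annotated windows, of which 3 overlap and hold these same CRE and CArG matches. These 3 hold the most CRE, CArG and Egr matches of the 5, and the first of them by position is shown. The others hold no CRE core, and the window that starts at 67537316 holds 1 CArG box of different sequence. The Nab1 window held 2 Egr sites, a site found in 0.612% of all windows and at least 2 times in 0.0213%, and 1 CRE core between them. Both Egr sites overlapped a GC box (GGGCGG), which 35.6% of all windows held. The Nab2 window held 1 GC box and no match to the other motifs. No window of Egr1 or Egr3 was examined, so nothing is said of their promoters. Matches describe these letters only and show no binding.

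**Figure D1:**
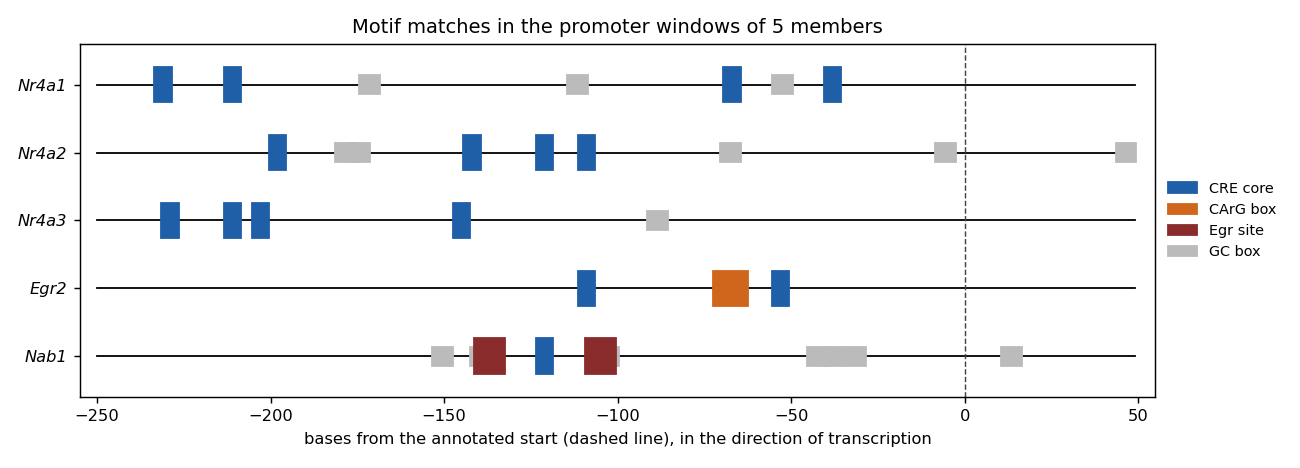
Motif matches in the RefSeq promoter windows of Nr4a1, Nr4a2, Nr4a3, Egr2 and Nab1, placed by distance in bases from the annotated start (dashed line). Each Nr4a window holds 4 CRE cores (blue), Egr2 holds 2 with a CArG box (orange), and Nab1 holds 2 Egr sites (dark red); grey blocks are GC boxes.

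Nr4a1 (ENSMUSG00000023034, chromosome 15, 101254269 to 101274795) had the widest range of the 8 genes. Its scaled values were 173 in ex vivo CLP 1, 3.32 in ex vivo CLP 2, 221 in ex vivo CLP 3 and 352 in ex vivo CLP 4. In cCLP 1 to 4 they were 215, 7.37, 4.80 and 5.94. The gene was thus high in the kept ex vivo libraries and cCLP 1 and low in the other 4, and the labelled groups overlapped. Over all 8 libraries the ex vivo mean was 187.5 ± 144 (SD, n = 4) and the cCLP mean 58.3 ± 104.6. The difference, taken as cCLP minus ex vivo on the log2(scaled value + 1) scale here and below, was -2.41 ± 1.92 (SE). It was -3.86 without ex vivo CLP 2 and -1.74 without ex vivo CLP 4. In the kept libraries the means were 249 ± 92.9 (SD, n = 3) and 6.04 ± 1.29, a difference of -5.10 ± 0.34 (SE) and a ratio of means of 41.2. Nr4a1 passed the filter on low values (at least 10 after scaling, in a number of libraries equal to the size of the smaller group) only through libraries in which it was high.

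Nr4a2 and Nr4a3 had lower deposited values and the same order of libraries in the main. Nr4a2 (ENSMUSG00000026826, chromosome 2, 57106830 to 57124003), a receptor best known from dopamine neurons, was at 6.13, 1.11, 11.1 and 16.0 in ex vivo CLP 1 to 4 and at 6.70, 2.11, 1.92 and 1.70 in cCLP 1 to 4. Its difference was -1.01 ± 0.75 over 8 libraries. It was -1.97 ± 0.37 over 6 libraries, where the groups did not overlap. Nr4a3 (ENSMUSG00000028341, chromosome 4, 48045153 to 48086447), which with Nr4a1 restrains myeloid leukaemia in mice, was listed at 3 and 8 before scaling in ex vivo CLP 3 and 4, and at 2 for cCLP 1. It was listed at 0 in the other 5 libraries, ex vivo CLP 1 among them, so it did not separate the groups even without ex vivo CLP 2 and cCLP 1. Neither gene passed the filter on low values, and at such values rounding to whole numbers is a large part of any difference. Within the ex vivo group both were highest in ex vivo CLP 4, as Nr4a1 was.

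**Figure D2:**
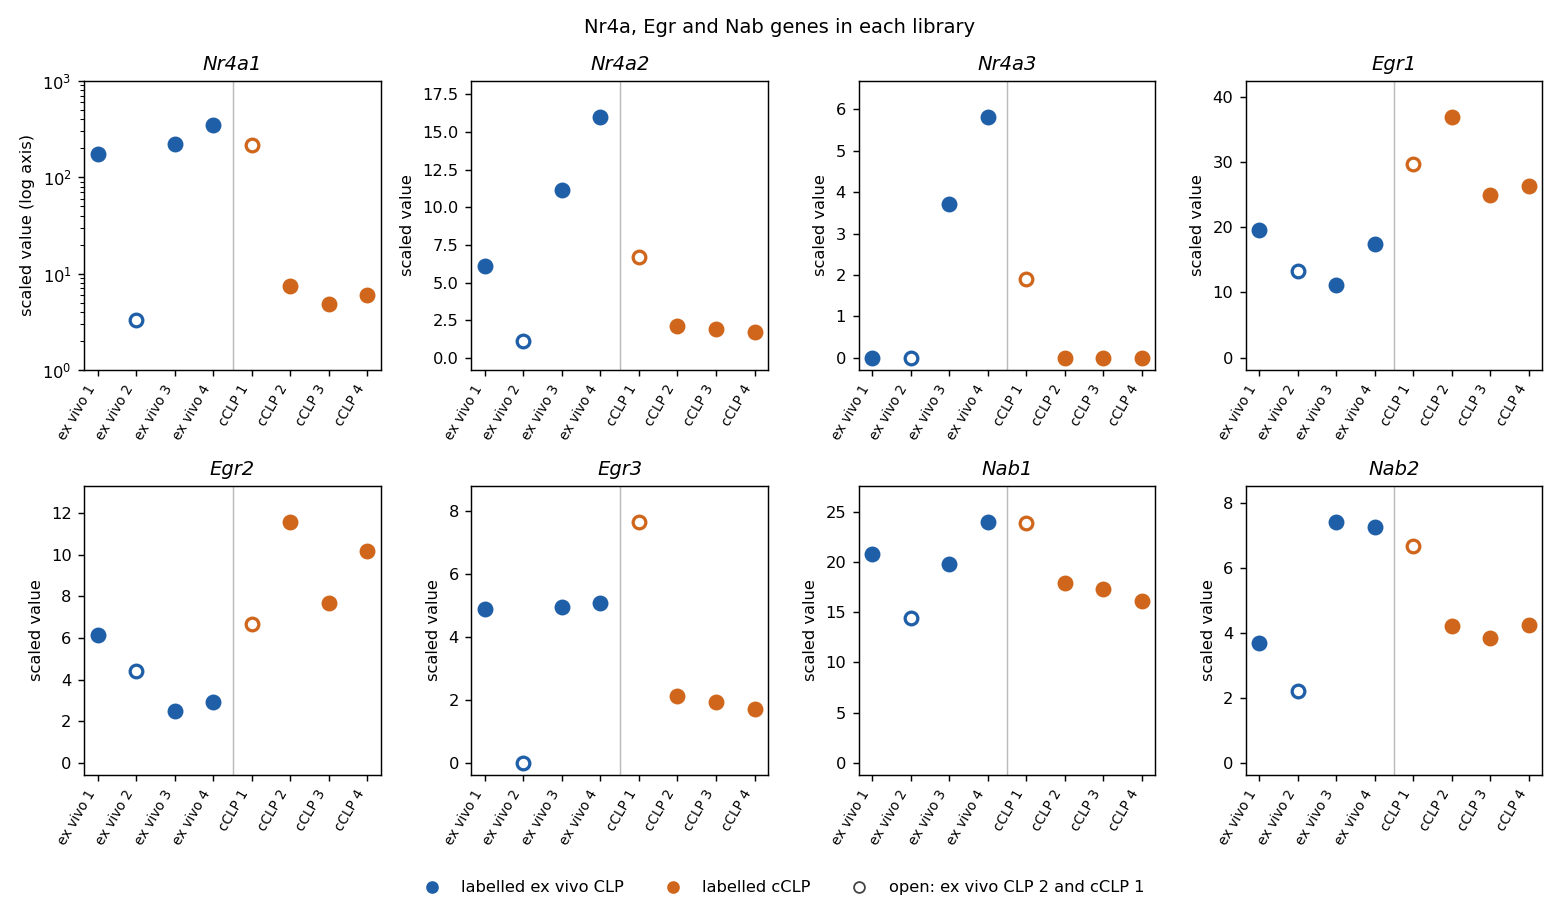
Scaled value of each of the 8 genes in every library (vertical axis; logarithmic for Nr4a1, linear from 0 for the others), with ex vivo CLP in blue, cCLP in orange and open circles for ex vivo CLP 2 and cCLP 1. For Nr4a1 and Nr4a2 the open circles lie with the other colour, while for Egr1 and Egr2 every orange circle lies above every blue one.

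Egr1 and Egr2 did not follow the Nr4a genes. Egr1 (ENSMUSG00000038418, chromosome 18, 34859823 to 34864984) was at 19.6, 13.3, 11.1 and 17.4 in ex vivo CLP 1 to 4 and at 29.7, 36.9, 25.0 and 26.3 in cCLP 1 to 4. Every cCLP library, cCLP 1 included, was above every ex vivo CLP library as labelled. The means were 15.4 ± 3.86 (SD, n = 4) and 29.5 ± 5.31, a difference of 0.91 ± 0.21 (SE). Without ex vivo CLP 2 and cCLP 1 the difference was 0.85 ± 0.29, where the same step had taken Nr4a1 from -2.41 to -5.10. Egr2 (ENSMUSG00000037868, chromosome 10, 67535475 to 67542188) was at 6.13, 4.42, 2.47 and 2.91 in ex vivo CLP 1 to 4 and at 6.70, 11.6, 7.69 and 10.2 in cCLP 1 to 4. These groups did not overlap either, but ex vivo CLP 1 and cCLP 1 were neighbours, with deposited values of 5 and 7. The difference for Egr2 was 1.04 ± 0.29 over 8 libraries and 1.22 ± 0.36 over 6.

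Egr3 (ENSMUSG00000033730, chromosome 14, 70077203 to 70082614), the third Egr factor, ran with the Nr4a genes. It was at 4.90, 0, 4.95 and 5.09 in ex vivo CLP 1 to 4 and at 7.65, 2.11, 1.92 and 1.70 in cCLP 1 to 4. The higher 4 libraries were again cCLP 1 and the kept ex vivo ones. Over 8 libraries its difference was -0.003 ± 0.76, with a sign that turned when 1 of several libraries was left out or values were scaled by their sum. Over 6 libraries it was -1.04 ± 0.06. Egr3 was listed at 2 before scaling in each of cCLP 2 to 4, so their spread comes from the library factors alone. Egr4, the remaining member of that family, was listed at 0 in all 8 libraries.

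The corepressor genes varied less. Nab1 (ENSMUSG00000002881, chromosome 1, 52457294 to 52500679) was at 20.8, 14.4, 19.8 and 24.0 in ex vivo CLP 1 to 4 and at 23.9, 17.9, 17.3 and 16.1 in cCLP 1 to 4. The labelled groups overlapped, with a difference of -0.06 ± 0.19 (SE), which became 0.04 when ex vivo CLP 4 was left out. Over 6 libraries the difference was -0.31 ± 0.09 and the groups did not overlap, except that they did when values were scaled by their sum. Nab2 (ENSMUSG00000025402, chromosome 10, 127660918 to 127668568) was at 3.68, 2.21, 7.42 and 7.27 in ex vivo CLP 1 to 4 and at 6.70, 4.21, 3.84 and 4.25 in cCLP 1 to 4. Its groups overlapped both over 8 libraries (-0.009 ± 0.37, with either sign depending on the library left out) and over 6 (-0.43 ± 0.28). Exons of Nab2 overlap those of Stat6, Nemp1 and Gm16229 on the opposite strand, and the strand setting used in counting is not stated, so reads of these genes may not be told apart. Stat6, a signal transducer of IL-4, lay between 35.9 and 47.5 in all 8 libraries.

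In all, 2 of the 8 genes had groups that did not overlap over the 8 libraries as labelled (Egr1 and Egr2, both higher in cCLPs), beside 3.22% of 13861 genes above 0 in any library (1.69% higher in cCLPs). Over the 6 libraries 6 of the 8 did not overlap, beside 49.1% of 13755 genes (23.0% higher and 26.1% lower in the kept cultured libraries), and 4 of those 6 (Nr4a1, Nr4a2, Egr3 and Nab1) were lower and 2 (Egr1 and Egr2) higher in the cultured ones. The genes were chosen with these values known, so nothing is read from the counts. Of the 8 genes 3 (Nr4a1, Egr1 and Nab1) passed the filter on low values. In bulk RNA, fewer cells that express a gene and less of its RNA in each cell cannot be told apart.

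Ratios of deposited values within a library do not depend on the library factor. For Nr4a1 over Egr1 it was 8.81, 19.9 and 20.2 in the 3 kept ex vivo libraries, in order of their number, and 7.26 in cCLP 1. It was 0.25 for ex vivo CLP 2, and for cCLP 2, 3 and 4 it was 0.2, 0.192 and 0.226. No library lay between 0.25 and 7.26, so the libraries fell into the same 4 and 4 as for Nr4a1 alone. The ratio of Nr4a1 to Nab1 split them likewise, at 8.29 to 14.7 against 0.231 to 0.412. The ratio of Egr1 to Nab1 followed the labels, at 0.562 to 0.941 in the 4 ex vivo CLP libraries and 1.24 to 2.06 in the 4 cCLP libraries. Ratios of Egr1 to the AP-1 subunit genes Fos and Junb did not separate the labelled groups. Egr1 over Fos was 0.0191 to 0.0745 in the ex vivo CLP libraries, 0.0729 in cCLP 1 and 0.129 to 0.265 in cCLP 2 to 4. Egr1 over Junb was 0.0373 to 0.235 in the ex vivo CLP libraries, 0.115 in cCLP 1 and 0.226 to 0.5 in cCLP 2 to 4. These ratios show unequal differences between genes and no level of one gene against another.

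**Figure D3:**
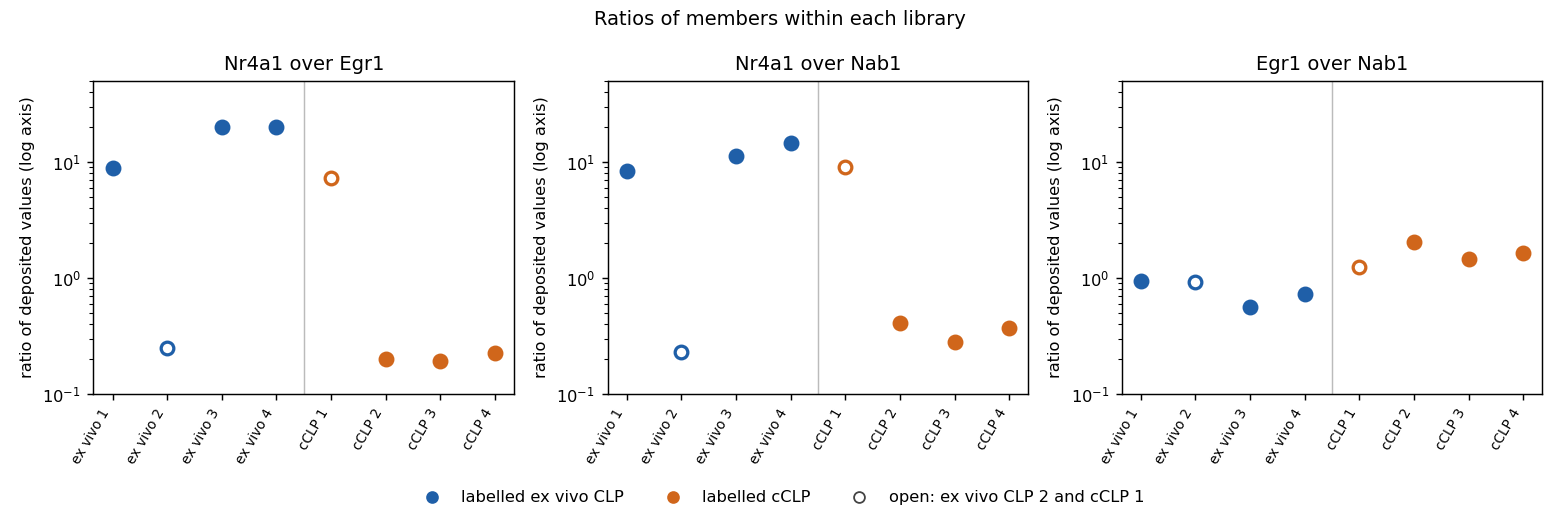
Ratios of deposited values within each library (logarithmic axes) for Nr4a1 over Egr1, Nr4a1 over Nab1 and Egr1 over Nab1, with ex vivo CLP in blue, cCLP in orange and open circles for ex vivo CLP 2 and cCLP 1. Nr4a1 over Egr1 is at 7.26 to 20.2 in 4 libraries and at 0.192 to 0.25 in the other 4, while Egr1 over Nab1 is below 1 in all ex vivo CLP libraries and above 1 in all cCLP libraries.

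The genes most like each member that passed the filter were sought by Pearson's r of log2(scaled value + 1) over the 8 libraries, as a description. The libraries fall into 2 clusters, which alone gives high values of r to many genes. Nearest to Nr4a1 were Ms4a6c (r = 0.998), a membrane protein gene of the MS4A family, Sik1 (0.998), which encodes a salt-inducible kinase, and Dnajb9 (0.998), an endoplasmic reticulum chaperone gene. Ms4a6c was at 53.9 to 109 in the kept ex vivo libraries and cCLP 1 and at 1.11 to 2.11 in the other 4 libraries. Sik1 was at 38.0 to 56.0 in the former 4 and 4.42 to 7.37 in the latter 4. Nearest to Egr1 were Wdfy4 (r = 0.966), which acts in cross-presentation by dendritic cells, Vwa8 (0.955) and the ribosome maturation gene Sbds (0.953). Their ranges were narrow, at 34.6 to 49.5 for Wdfy4, 7.42 to 10.6 for Vwa8 and 21.0 to 30.5 for Sbds, against 11.1 to 36.9 for Egr1. Nearest to Nab1 were Smc6 (r = 0.997), part of a chromosome maintenance complex, the peptidase gene Dpp9 (0.991) and the corepressor gene Bcor (0.990).

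Other immediate early genes were read from a list of 30, of which 19 were tested. Over all 8 libraries limma called 0 of the 19, beside 0.0% of all 6486 genes tested. At an unadjusted p below 0.05 it found 1 of the 19, Dusp2, beside 7.35% of all genes tested. Over the 6 libraries 1 of the 19 rose and 15 fell, beside 43.0% called in either direction among 6573 genes tested, 20.8% higher and 22.2% lower. The list's median log2 fold change was -1.45, where the median of all genes tested was 0.005. Of the 19, 4 were below 10 in every library of cCLP 2 to 4 and so could only fall; of the other 15, 1 rose and 11 fell. Without ex vivo CLP 1 the number that fell was 23, of 25 tested, and 10 of 19 fell when ex vivo CLP 3 was left out.

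Within that list Dusp2, which encodes a nuclear phosphatase of ERK, was the 1 gene that rose. It was at 173 ± 36.2 (SD, n = 3) in the kept ex vivo and 257 ± 32.3 in the kept cultured libraries, a log2 fold change of 0.58 ± 0.17 (SE) with limma adjusted p = 0.025. That call ended without cCLP 2 (adjusted p = 0.0869), cCLP 3 (0.0558), ex vivo CLP 3 (0.0518) or ex vivo CLP 4 (0.0583) and with values scaled by their sum (0.0542). Socs3, a feedback inhibitor of cytokine receptors, fell most, from 31.3 ± 10.2 to 0.954 ± 0.102 (-3.99 ± 0.25, adjusted p = 7.71e-06), and was among those that could only fall. Fos, Dusp1 and Junb were picked after their values were seen. Fos, a subunit of AP-1, fell from 489 ± 129 to 177 ± 33.9 (-1.45 ± 0.23, adjusted p = 0.00153). Dusp1, a phosphatase of stress kinases, fell from 79.2 ± 25.1 to 11.0 ± 0.772 (-2.69 ± 0.23, adjusted p = 6.2e-05). Junb, another AP-1 subunit, was at 233 ± 113.7 and 91.7 ± 18.4 (-1.20 ± 0.41, adjusted p = 0.0501), just outside the threshold. It was called without ex vivo CLP 1 (adjusted p = 0.000125) and, at 0.0314 to 0.0472, with both other scalings, both other filters, pseudocount 4 and no trend. Among the 19 genes, 9 (47.4%) had their highest value in ex vivo CLP 4 and 7 (36.8%) in ex vivo CLP 3, against 16.0% and 22.1% of all genes tested. Those shares of all genes are spread over 8 libraries. Among ex vivo CLP 1, 3, 4 and cCLP 1 alone, the list's shares were again 47.4% and 36.8%. There 23.4% of all genes tested were highest in ex vivo CLP 4 and 35.3% in ex vivo CLP 3, close to the list's share for ex vivo CLP 3.

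**Figure D4:**
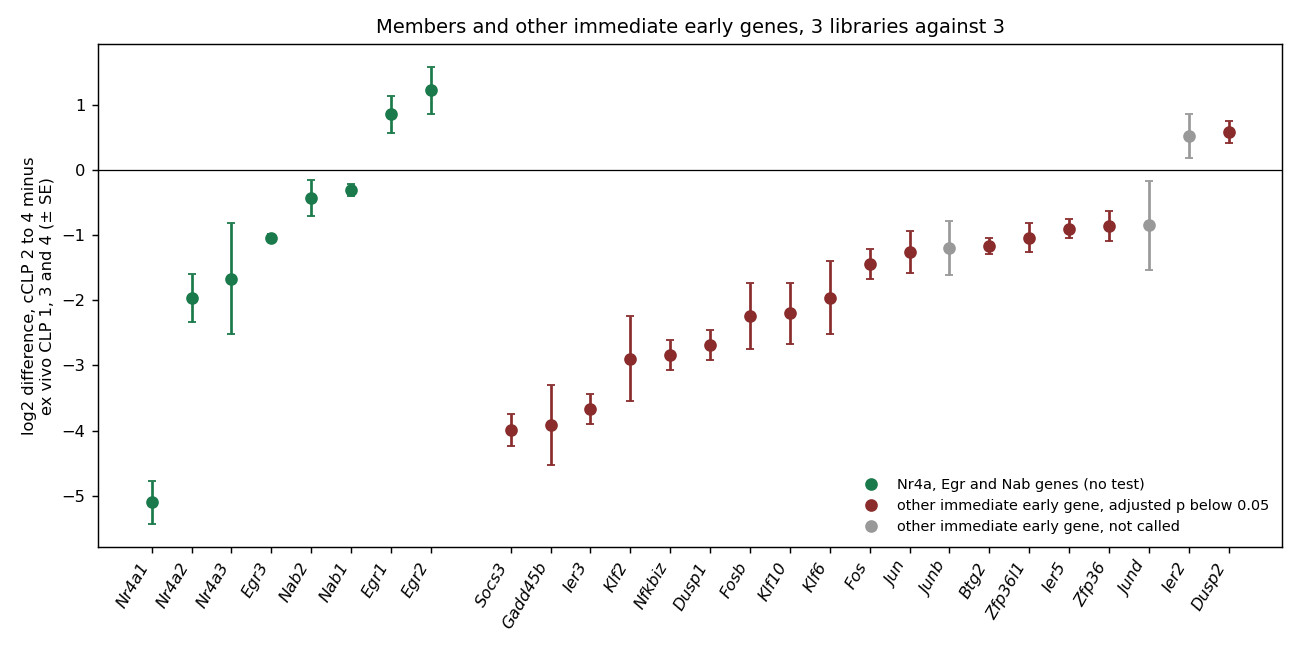
Log2 difference (cCLP 2 to 4 minus ex vivo CLP 1, 3 and 4) with its SE for the 8 members, untested, in green and for the 19 tested genes of the immediate early list, called at adjusted p below 0.05 in red and not called in grey. Nr4a1 is lowest at -5.10, Egr1 and Egr2 lie above 0 at 0.85 and 1.22, and Dusp2 is the called gene of the list above 0.

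Factors that act upstream went both ways over the 6 libraries. Among SRF, CREB, MEF2 and NFAT factors and their cofactors 3 of 13 tested genes rose and 2 fell, beside 20.8% and 22.2% of all genes. Of these Mef2c lost its call without cCLP 2 (adjusted p = 0.0509) and Srf without cCLP 4 (0.0528). Elk3, also among those that rose, kept its call under every setting run over these 6. It was at 29.7 to 33.1 in the kept ex vivo and 83.2 to 87.4 in the kept cultured libraries. Its log2 fold change was 1.41 ± 0.09 (SE), with limma adjusted p = 9.3e-06. Crem, whose isoforms activate or repress through CRE sites, rose from 3.43 ± 0.454 (SD, n = 3) to 25.4 ± 3.08 (2.57 ± 0.14, limma adjusted p = 3.78e-06); it was below 10 in every kept ex vivo library and could only rise. Mef2d, a calcium-responsive factor that acts on the Nr4a1 promoter in thymocytes, fell from 38.5 ± 10.2 to 16.9 ± 1.89 (-1.12 ± 0.20, adjusted p = 0.00261). In the RAS to ERK cascade 2 of 13 tested genes (Nras and Sos2) rose and 2 fell, 30.8% in all beside the 43.0% of all genes. Rps6ka1, an ERK-activated kinase that phosphorylates SRF, CREB and Nr4a1 in other cells, fell from 71.1 ± 6.20 to 42.1 ± 2.77 (-0.74 ± 0.10, adjusted p = 0.000783). Sos2, an exchange factor for RAS, rose from 9.30 ± 0.590 to 12.9 ± 0.594 (0.43 ± 0.11, adjusted p = 0.0141). It too was below 10 in every kept ex vivo library, and it lost its call without cCLP 2 (0.053) or cCLP 4 (0.0729).

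Of 7 feedback inhibitors of ERK tested over the 6 libraries 2 rose and 1 fell, 42.9% beside 43.0% of all genes. Of the 2 that rose (Dusp6 and Spred1) Spred1 lost its call without cCLP 4 (adjusted p = 0.0765). Dusp6, a cytoplasmic ERK phosphatase induced by ERK signalling, rose from 98.5 ± 15.4 (SD, n = 3) to 196 ± 19.8 (0.995 ± 0.137 on the log2 scale, limma adjusted p = 0.000735). Dusp5, a nuclear ERK phosphatase, fell from 146.9 ± 21.1 to 23.1 ± 5.66 (-2.63 ± 0.18, adjusted p = 1.36e-05). Among partner factors of Nr4a and Egr proteins 1 of 6 tested rose and 1 fell (33.3%). Chd4, the remodeller of the NuRD complex, which Nab2 recruits, went from 68.8 ± 15.7 to 100.7 ± 9.82 (0.57 ± 0.17, adjusted p = 0.0307), and it lost its call without cCLP 2 (0.103), cCLP 3 (0.0701) or cCLP 4 (0.0608) and with values scaled by their sum (0.0618). The coactivator gene Ncoa3 fell from 14.4 ± 1.84 to 6.96 ± 0.355 (-0.94 ± 0.13, adjusted p = 0.000768) and was below 10 in each of cCLP 2 to 4. Of 14 genes described elsewhere as targets of Egr or Nr4a factors 8 were tested, 0 rose and 2 fell, a share of 25.0% beside 22.2% lower and 43.0% called over all genes. These were the adhesion receptor gene Cd44, from 91.2 ± 27.0 to 25.0 ± 1.69 (-1.78 ± 0.21, adjusted p = 0.0004), and the early activation antigen gene Cd69, from 613 ± 147 to 275 ± 42.1 (-1.14 ± 0.20, adjusted p = 0.00252).

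Markers of other cells moved with the Nr4a genes. The summed scaled level of 12 myeloid markers was 1393 to 3437 in the kept ex vivo libraries and 1810 in cCLP 1, against 275.9 to 309 in cCLP 2 to 4 and 173.6 in ex vivo CLP 2. In the latter 4 libraries 6 of the 12 (Elane, Ctsg, Csf1r, Csf3r, S100a8 and S100a9) were listed at 0, while in the former 4 all 12 were above 0. Of 11 tested over the 6 libraries 11 fell, 9 of which could only fall, beside 22.2% lower and 43.0% called in either direction among all genes tested. Among the kept ex vivo libraries the sum was lowest in ex vivo CLP 1, as Nr4a1 was. The order differed at the top. The sum was 3437 in ex vivo CLP 3 and 3227 in ex vivo CLP 4, where Nr4a1 was at 221 and 352. The part of these markers in the Nr4a values was not tested. Of 10 stromal markers 7 were listed at 0 in all 8 libraries, Col1a1, Sparc and Pdgfra among them, and the sum of the list was 8.65 to 17.9. Fn1 (fibronectin), from the same list, went the other way from the Nr4a genes, at 0 to 0.727 in the kept ex vivo libraries and 0 in cCLP 1, but reached 5.94 to 11.6 in cCLP 2 to 4 and 5.53 in ex vivo CLP 2. Its part in the member values was not tested. Of 12 markers of mature lineages Cd3e, Cd8a and Ncr1 were at 0 in all libraries, and the sum was 15.3 to 33.4 in the kept ex vivo libraries and cCLP 1 and 1.11 to 3.84 in the other 4. Of 6 heat shock genes tested over the 6 libraries 1 was higher (Hspd1) and 2 were lower (Hspa8 and Dnajb1), beside 20.8% higher and 22.2% lower of all genes. Dnajb1 went from 111.7 ± 7.44 (SD, n = 3) to 61.5 ± 2.55 (limma adjusted p = 0.000222) and was called under every setting run over these 6. Over all 8 libraries it was not called (adjusted p = 0.616). Hspd1 lost its call without any 1 of cCLP 2, 3 and 4 and ex vivo CLP 3 and 4 (adjusted p = 0.0633 to 0.106) and with values scaled by their sum (0.0517), and Hspa8 without any 1 of cCLP 2 and 3 and ex vivo CLP 3 and 4 (0.069 to 0.11). Mitochondrially encoded genes took 7.59% to 9.32% of the summed values in the kept ex vivo libraries and cCLP 1 and 9.88% to 11.8% in the other 4.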

How the data were processed

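RNA was measured in 8 libraries, 4 ex vivo CLP and 4 cCLP. Per the labels' protocols, 100 ng of total RNA was depleted of ribosomal RNA, made into stranded libraries and sequenced as paired reads of 75 nt. TopHat2, Bowtie2, HTSeq 1.0.6 and GRCm38 (mm10) are named, per the submitters' processing notes; the role of each tool, strand setting, annotation release and any scaling are not given in the sources used here. The deposited value is a score, a whole number per gene on no stated scale. Between ex vivo CLP 3 and 4 its dispersion index averaged 0.458 over 6876 genes, and between cCLP 3 and 4 0.262 over 6768, below the sampling error of counts, so no count test was used. Of the 39179 IDs, 37693 matched GENCODE vM21.

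Each library was scaled by a mean of its log ratios to 1 library, after trimming 30% of the ratios and 5% by level. Linear models of log2(scaled value + 1) were fitted in R 4.3.3 with limma 3.58.1 (trend, robust, two-sided, Benjamini-Hochberg over all genes tested, adjusted p below 0.05). The code was also run on simulated data whose spread came from the 6 kept libraries. No simulated library lay with the other group, so that run does not bear on the fit over all 8 libraries as labelled. Member differences are plain differences of group means, with the SE from the group variances. Members, lists, tests and the 6 libraries were chosen with earlier results of these data known. Genes named from the lists are the called ones with the largest rise and fall, others being said to be picked later. Cd69, Fn1, Nras, Spred1, Mef2c, Srf, Elk3, the heat shock genes, Egr4 and Stat6 were also picked after their values were seen. Alternatives were other scalings, pseudocount 4, other filters, no trend, a replicate block and each library left out. Same-numbered libraries had correlated deviations of 0.595, 0.843, -0.575 and -0.86. The libraries that lay with the other group were included, and they alone can set these signs. The check therefore cannot decide whether the numbers pair libraries. The numbers were not taken as pairs.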

Additional observations from a re-analysis of the deposited data

Results flagged for a closer look

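Among the 16 combinations of a member and a labelled group, 6 had 1 library far from the other 3 by Dixon's criterion. Chance gives about 1 in 20 for independent values, which does not hold here: the genes were chosen on these values and the 2 libraries were known to stand apart. The 6 are therefore a description, and for Nr4a2, Nr4a3 and Egr3 the deposited values of cCLP 2 to 4 were equal small whole numbers (2, 0 and 2). In the cCLP group this was cCLP 1 for Nr4a1 (215.2), Nr4a2 (6.70), Nr4a3 (1.91), Egr3 (7.65) and Nab2 (6.70), each time the highest. In the ex vivo CLP group it was ex vivo CLP 2 for Egr3, listed at 0 where the other 3 were at 4.90 to 5.09. Both libraries lay with the other group over all genes. Egr1, Egr2 and Nab1 had no such library in either group.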

How the results depend on the processing

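Over all 8 libraries limma called 0 genes higher and 0 lower under every setting run, with 477 genes at an unadjusted p below 0.05 (108 to 1984 with 1 library left out) and 509 with a replicate block. With ex vivo CLP 2 and cCLP 1 both left out it called 1369 higher and 1459 lower. Over those 6 libraries no filter on low values gave 2236 and 2767, and leaving out 1 library gave 888 (without cCLP 4) to 1567 higher and 1193 to 1736 lower. In the immediate early list the number higher was 0 with values scaled by their sum and 0 to 1 with 1 library left out, and the number lower was 10 to 23. Over all 8 libraries both were 0. The cause was not tested. With a replicate block over the 6 libraries 1229 genes were higher and 1271 lower, and 1 and 17 of the immediate early list; the replicate numbers 3 and 4 alone are shared there, and the numbers were not shown to pair libraries. With that block Nras (adjusted p = 0.148), Sos2 (0.0554), Spred1 (0.1) and Hspd1 (0.103) were not called, which leaves 0 of the RAS to ERK cascade higher. Junb, Jund and Icam1 were called with it. The block model fits nearly as many terms as there are libraries, so its p-values are not reliable. No gene or count is read from it. Of 176 member differences under other settings 173 moved by less than 1 SD between libraries of a group. Over 8 libraries ex vivo CLP 2 and cCLP 1 widen that SD for genes such as Nr4a1. Its move from -2.41 to -3.86 without ex vivo CLP 2 counted as less than 1 SD, so the count does not measure stability there. The 3 that moved further were those over 6 libraries with a pseudocount of 4, at -4.60 for Nr4a1, -1.30 for Nr4a2 and -0.60 for Egr3. Depth is unknown, and 5 of the 8 members lie so low that rounding limits them.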
